A study of Mus musculus with 6 samples.

Results

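Peptidylarginine deiminases and transglutaminases, the enzymes that modify and cross-link the structural proteins of hair and epidermis, were followed in whole mouse skin with and without added Hoxc13. The members were all probe sets whose annotated gene symbol is Padi or Tgm followed by a number. They were 6 of the 12422 probe sets that are not array controls, 1 each for Padi1, Padi2, Padi3, Padi4, Tgm2 and Tgm3. Of the 12 mouse genes with such symbols in the RefSeq table, Padi6, Tgm1, Tgm4, Tgm5, Tgm6 and Tgm7 had no probe set in the annotation and were not analysed here. The 3 GC13 samples were total skin of a transgenic line that overexpresses Hoxc13, a homeobox gene of the hair follicle. The 3 FVB samples were total skin of the albino inbred strain FVB, and all 6 were taken 5 days after birth. The labels leave out the promoter that drives the transgene, the number of founder lines, the background strain of GC13 and the sex of the animals. Nor do they state that replicates were different mice, and the p-values reflect the spread over these samples alone, which may be technical.

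Deiminases convert arginine in proteins to citrulline when calcium rises, which removes a positive charge and loosens the protein. Transglutaminases, also dependent on calcium, then join glutamine to lysine residues and lock proteins together. In the inner root sheath and medulla of the hair follicle, the 2 steps act in turn on trichohyalin, and in the upper epidermis they act on filaggrin, keratins and the cornified envelope. In humans, mutations of PADI3, TGM3 or the trichohyalin gene TCHH cause uncombable hair, and mutations of TGM1 cause lamellar ichthyosis.

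Each array had 1 deposited intensity per probe set, on a linear scale, and the array sums ran from 1640876 to 1736141 in GC13 and from 1626361 to 1644444 in FVB. The 3' over 5' ratio of the Gapdh controls, a measure of RNA degradation that is high when the 5' end is poorly represented, was 2.22, 9.58 and 2.19 on the GC13 arrays, against 0.931, 0.958 and 0.894 on the FVB arrays. This ratio did not overlap between the groups (exact two-sided permutation test, p = 0.1, the smallest that 3 against 3 arrays allow), so RNA quality and genotype cannot be told apart in any result here. The same ratio of the beta-actin controls was 1.26, 3.80 and 1.43 in GC13, against 1.36, 1.26 and 1.16 in FVB, and overlapped (exact two-sided permutation test, p = 0.2). GC13 replicate 2, with a Gapdh ratio of 9.58 and a beta-actin ratio of 3.80, stood apart from the other arrays. It also had an intensity of 143 for the Y-linked gene Eif2s3y, against 3.25 and 4.60 on the other GC13 arrays and 69.4 to 98.9 on the FVB arrays. Every value given without GC13 replicate 2 therefore sets GC13 arrays with low Eif2s3y against FVB arrays with high Eif2s3y, and there sex and genotype cannot be told apart. Among markers of skin, the genes of hair cortex, inner root sheath and suprabasal epidermis were well represented, while the basal keratinocyte keratins Krt5, Krt14 and Krt15 were among the dimmest 25% of probe sets that were left out of the tests. Hoxc13 itself had no probe set in the annotation, so the overexpression was not checked here.

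The 4 members with all GC13 intensities below all FVB intensities were Padi1, Padi3, Padi4 and Tgm3. Their promoters are shown because these genes lay on the same side in GC13 and the altered factor is a transcription factor. Binding or regulation of these genes by Hoxc13 was not tested. The sequences are the 250 bases before the annotated start site, from RefSeq on GRCm38.p6, written 5′ to 3′ on the strand of the gene. They lie at chr4:140845779-140846028 on the minus strand for Padi1, chr4:140810649-140810898 on the minus strand for Padi3, chr4:140774204-140774453 on the minus strand for Padi4 and chr2:130012090-130012339 on the plus strand for Tgm3. Capitals mark matches, on either strand, to TTTATNG or TTTACGA (cores of HOX13-type sites), CCAAT (the box bound by NF-Y), GGGCGG (the box bound by Sp1) or TGANTCA (the site bound by AP-1).
Padi1: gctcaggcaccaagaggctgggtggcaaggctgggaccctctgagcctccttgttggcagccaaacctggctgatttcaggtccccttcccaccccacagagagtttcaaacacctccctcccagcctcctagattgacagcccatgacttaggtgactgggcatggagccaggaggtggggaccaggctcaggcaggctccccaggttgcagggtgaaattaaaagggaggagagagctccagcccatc
Padi3: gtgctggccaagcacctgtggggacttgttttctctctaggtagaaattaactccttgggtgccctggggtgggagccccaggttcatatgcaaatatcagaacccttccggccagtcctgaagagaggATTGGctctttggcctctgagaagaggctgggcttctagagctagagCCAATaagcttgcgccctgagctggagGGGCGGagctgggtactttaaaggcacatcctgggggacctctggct
Padi4: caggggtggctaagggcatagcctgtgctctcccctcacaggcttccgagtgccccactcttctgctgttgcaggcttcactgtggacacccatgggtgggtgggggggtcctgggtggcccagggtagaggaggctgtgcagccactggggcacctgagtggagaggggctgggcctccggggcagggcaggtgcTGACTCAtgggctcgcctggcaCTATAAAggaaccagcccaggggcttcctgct
Tgm3: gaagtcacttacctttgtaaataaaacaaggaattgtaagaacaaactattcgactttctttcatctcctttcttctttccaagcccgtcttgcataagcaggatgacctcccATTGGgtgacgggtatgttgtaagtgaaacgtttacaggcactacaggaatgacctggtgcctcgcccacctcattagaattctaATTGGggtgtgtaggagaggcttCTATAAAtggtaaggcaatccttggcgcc

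The Padi1 window held none of these letter strings. The Padi3 window held CCAAT letters on the other strand from 121 to 117 bases before the start and on the gene strand from 74 to 70 bases before it, with a GGGCGG string from 47 to 42 bases before the start. The Padi4 window held TGACTCA from 54 to 48 bases before the start. Padi4 and Tgm3 each held CTATAAA, which is a TTTATNG match on the other strand, from 32 to 26 and from 29 to 23 bases before the start. Both matches also spell TATAAA, the letters of a TATA box, and the strings overlap completely. Tgm3 further held ATTGG, the reverse complement of CCAAT, at 137 to 133 and at 52 to 48 bases before the start. Over 32851 mouse promoter windows of the same length, 9.81% held TTTATNG, 3.21% held it in the form that contains TATAAA, 0.478% held TTTACGA, 33.8% held CCAAT, 32.7% held GGGCGG, 6.75% held TGANTCA and 12.4% held TATAAA. A Padi2 window was also searched and held 3 GGGCGG strings and 1 CCAAT string. The promoter table had no entry for Tgm2.

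The design sets the GC13 line, with added Hoxc13, against the strain FVB in growing skin. An effect of Hoxc13 on these enzymes cannot be told apart from RNA quality or from any difference in background strain. Judged by Eif2s3y, sex was also uneven between the groups, and its part was not tested. Padi1, Padi3, Padi4 and Tgm3 had every GC13 intensity below every FVB intensity, while Padi2 and Tgm2 overlapped between the groups. For those 4 the group means on the centred log2(intensity + 2) scale differed by 1.47-fold to 1.96-fold. No member passed the threshold of 0.05 after adjustment over all probe sets (limma, Benjamini-Hochberg over 9316 probe sets), where 0.505% of probe sets passed, 0.419% lower and 0.0859% higher in GC13. Without centring of the arrays, 35 probe sets passed and 94.3% of them were lower in GC13, against 83% with centring. At an unadjusted limma p under 0.05 there were 4 of 6 members, against 15.5% of all tested probe sets. All 3 GC13 intensities lay below all 3 FVB intensities for 4 of 6 members, against 12.3% of all tested probe sets, and above them for none, against 10.7%. On the centred log2 scale the same 4 members were without overlap, against 9.94% of probe sets lower in this way. The members' median log2 fold change was -0.61, against 0.08 for all tested probe sets, and 4 of 6 lay below 0, against 42.7%. The members were set by gene symbol but with earlier results of these data known, so these shares are no independent evidence. In whole skin, fewer cells of a type and less RNA per cell cannot be told apart for any member. All 6 members passed the filter on dim probe sets, which reads the mean over all arrays and not the difference between groups.

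**Figure D1:**
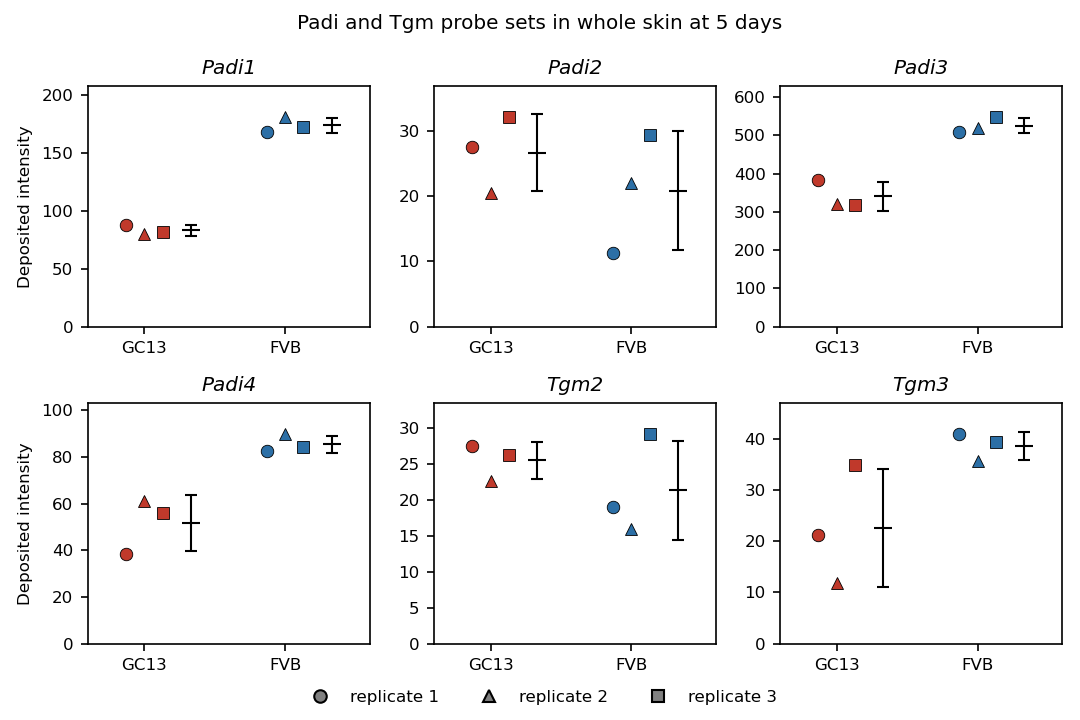
Deposited intensity of each Padi and Tgm probe set (vertical axis, linear, from 0) on the 3 GC13 and 3 FVB arrays, with the mean and SD of each group as a bar beside the points. Padi1, Padi3, Padi4 and Tgm3 have every GC13 point below every FVB point, and Padi2 and Tgm2 overlap.

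Padi1 encodes a deiminase of the epidermis and hair follicle, with keratins and filaggrin among its known substrates. Its intensities were 88.3, 79.7 and 81.6 in GC13, against 168, 181 and 173 in FVB. The GC13 arrays lay close together, all near the 83.2 ± 4.51 of their mean, and far below the FVB mean of 174 ± 6.51 (SD, n = 3 each). The log2 fold change was -0.97 (SE 0.20, 95% interval -1.43 to -0.52). This is a level 1.96-fold lower in GC13 on the log2(intensity + 2) scale, with arrays centred on their medians. The limma adjusted p was 0.0883, and Padi1 ranked 118 of 9316 probe sets by p. Relative to the FVB mean, the centred values of GC13 replicates 1, 2 and 3 were -0.93, -0.84 and -1.15. Without GC13 replicate 2 the log2 fold change was -1.04 and the limma adjusted p 0.0133, and 14.9% of all probe sets passed in that comparison.

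Padi3 encodes the deiminase of the inner root sheath and hair medulla that acts on trichohyalin, and of the hair cuticle, where human PADI3 acts on S100A3. Its intensities were 384, 319 and 318 in GC13, against 510, 518 and 547 in FVB. The highest GC13 array lay well below the lowest FVB array, and GC13 averaged 340 ± 37.8 against 525 ± 19.5 in FVB (SD, n = 3 each). The log2 fold change was -0.55 (SE 0.20, 95% interval -1.03 to -0.08, limma adjusted p = 0.259). Without GC13 replicate 2 it was -0.61 with a limma adjusted p of 0.059.

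Padi4 encodes a deiminase best known from neutrophils and other white blood cells, where it modifies histones. Its intensities were 38.2, 60.9 and 55.8 in GC13, against 82.7, 89.7 and 84.1 in FVB. GC13 replicate 2 was the highest of its group, and the group averaged 51.7 ± 11.9 against 85.5 ± 3.68 in FVB (SD, n = 3 each). The log2 fold change was -0.66 (SE 0.26, 95% interval -1.25 to -0.06, limma adjusted p = 0.289). On the centred scale GC13 replicate 2 lay 0.21 below the FVB mean, while replicates 1 and 3 lay 1.09 and 0.68 below it. Without replicate 2 the log2 fold change was -0.88 and the limma adjusted p 0.0289, and Padi1 and Padi4 were the 2 of 6 members past the threshold there, against 14.9% of all probe sets. Of 10 neutrophil markers 7 were bright enough to test and none passed. Their median log2 fold change was 0.44, with 5 of 7 above 0, against 57.3% of all probe sets. Without GC13 replicate 2, 1 of these markers was lower at the threshold, against 8.84% of all probe sets. Their summed intensity ran from 144 to 240 in GC13 and from 213 to 255 in FVB, none of the markers was at 0, and their part in the Padi4 difference was not tested.

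Padi2 encodes the most widely expressed deiminase, known from muscle, brain and glands. Its intensities were 27.4, 20.4 and 32.01 in GC13, against 11.2, 21.9 and 29.3 in FVB. The groups overlapped, and all 6 values lay below the median intensity of their arrays, which ran from 29.0 to 37.4 in GC13 and from 34.2 to 36.0 in FVB. GC13 averaged 26.6 ± 5.84 and FVB 20.8 ± 9.09 (SD, n = 3 each), with a log2 fold change of 0.47 (SE 0.31, 95% interval -0.25 to 1.19, limma adjusted p = 0.512). FVB replicate 1 held much of this difference, since without it the log2 fold change was 0.14. Skeletal muscle markers, summed over the 11 tested, ran from 2902 to 3448 in GC13 and from 2603 to 2711 in FVB without overlap, none was at 0, and their part in Padi2 was not tested. None of the 11 passed, and 4 were higher at the threshold without GC13 replicate 2, against 6.04% of all probe sets.

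Tgm3 encodes epidermal transglutaminase, which cross-links trichohyalin in the inner root sheath and proteins of the cornified envelope, and the wellhaarig mouse with its wavy coat carries a mutation of it. Its intensities were 21.2, 11.9 and 34.9 in GC13, against 40.9, 35.7 and 39.4 in FVB. The GC13 arrays spread widely, and replicate 3 lay just under the lowest FVB array. GC13 averaged 22.6 ± 11.6 and FVB 38.6 ± 2.66 (SD, n = 3 each), with a log2 fold change of -0.76 (SE 0.29, 95% interval -1.43 to -0.09, limma adjusted p = 0.279). GC13 replicate 2, with the highest Gapdh ratio, had the lowest Tgm3 and lay 1.28 below the FVB mean on the centred log2 scale, while replicates 1 and 3 lay 0.78 and 0.22 below it. Without replicate 2 the log2 fold change was -0.50 (95% interval -1.001 to 0.0072, limma adjusted p = 0.144).

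Tgm2 encodes tissue transglutaminase, found in many cells including endothelium and smooth muscle, where it cross-links matrix proteins. Its intensities were 27.5, 22.6 and 26.2 in GC13, against 18.9, 15.9 and 29.1 in FVB. FVB replicate 3 was the highest of all, so the groups overlapped, and all 6 values lay below the median of their arrays. The log2 fold change was 0.35 (SE 0.25, 95% interval -0.23 to 0.92, limma adjusted p = 0.545). Endothelial markers, summed over the 8 tested, ran from 895 to 1168 in GC13 and from 648 to 779 in FVB without overlap, none was at 0, and their part in Tgm2 was not tested. The markers did not all lie the same way, with 6 above 0 and 2 below, against 57.3% of all probe sets above 0. Eng averaged 412 in GC13 and 199 in FVB and weighed heavily in the sums. Cldn5 was lower in GC13 without overlap, with 101, 61.9 and 83.6 against 127, 140 and 135 in FVB (log2 fold change -0.65). None of the 8 passed, and 1 was higher at the threshold without GC13 replicate 2, against 6.04% of all probe sets.

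**Figure D2:**
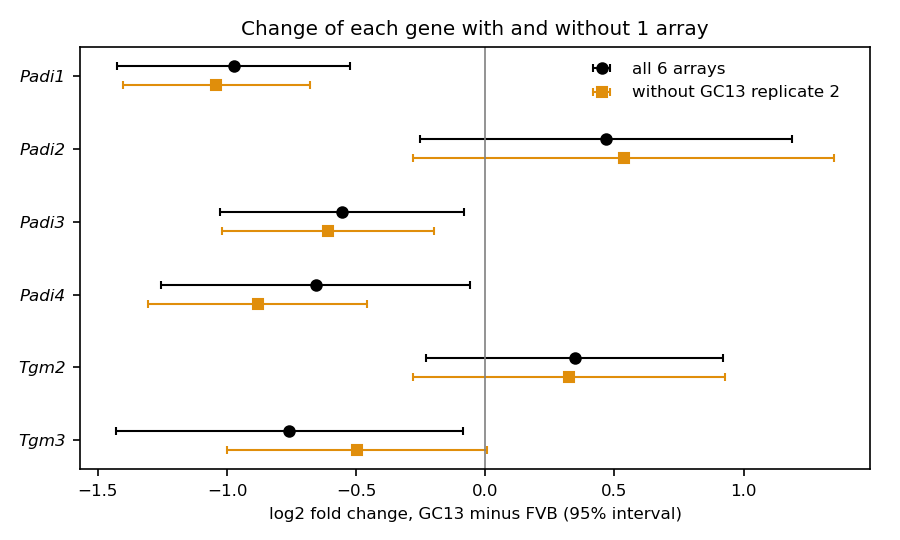
log2 fold change of each Padi and Tgm gene, GC13 minus FVB (horizontal axis), with its 95% interval, from all 6 arrays (black) and without GC13 replicate 2 (orange). Padi1 stays near -1 in both, Padi4 is lower without that array and Tgm3 is closer to 0.

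The members that lay lower in GC13 did not share one order over the GC13 arrays. Padi1 and Padi3 were furthest below the FVB mean on replicate 3 on the centred scale, Padi4 on replicate 1 and Tgm3 on replicate 2. Over the 6 arrays the Pearson correlation of centred log2 values was 0.96 between Padi1 and Padi3, 0.81 between Padi1 and Padi4 and 0.64 between Padi1 and Tgm3, where the points share the difference between the groups. Padi2 and Tgm2, the pair whose groups overlapped, had a correlation of 0.60 with each other.

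**Figure D3:**
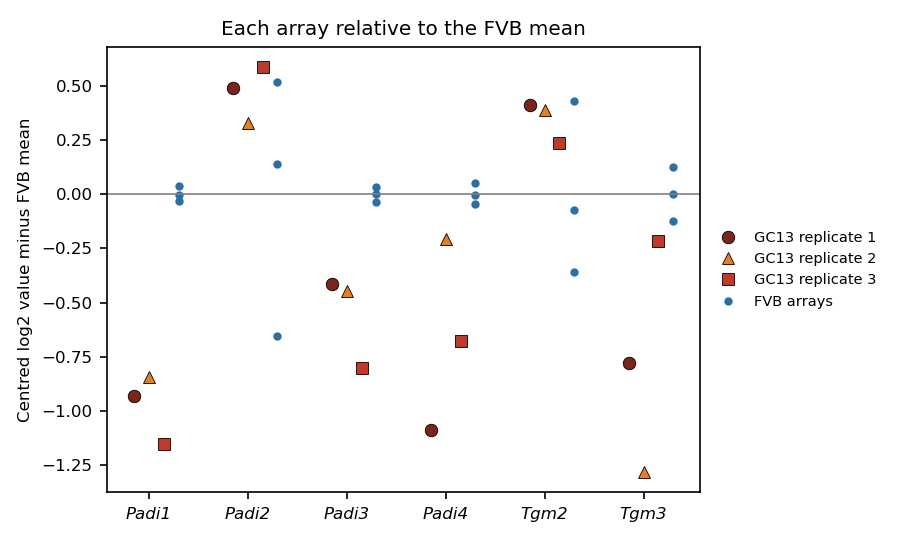
Centred log2 value of each GC13 array (large symbols) and FVB array (small blue points) minus the FVB mean, for each Padi and Tgm gene. Padi1 has the 3 GC13 arrays between -1.15 and -0.84, whereas those of Padi4 and Tgm3 are spread between -1.28 and -0.21.

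Ratios between 2 members on the same array do not depend on how the arrays were scaled, and a difference between the groups in such a ratio would mean unequal change of the intensities. Each of the 15 pairs was tested by exact permutation (two-sided), a test added after the values were seen. In 8 pairs the groups did not overlap (exact p = 0.1, the smallest possible), and the smallest exact p adjusted over the 15 pairs was 0.188 (Benjamini-Hochberg). The log2 ratio of Padi1 to Padi3 was -2.03 ± 0.08 in GC13 and -1.59 ± 0.07 in FVB (SD, n = 3 each), a difference of -0.43 with no overlap. Padi1 was thus lower relative to Padi3 on every GC13 array. The other 7 pairs without overlap set one of Padi1, Padi3, Padi4 and Tgm3 against Padi2 or Tgm2, with the first of each pair lower in GC13 relative to the second. The eighth such combination, Padi4 with Padi2, overlapped (exact p = 0.2). These combinations set members already seen to separate against members already seen to overlap, so they add no separate evidence. The signal over background of Padi2, Tgm2 and Tgm3, all dim, is unknown, so ratios with them need not show unequal change of RNA. Among Padi4, Tgm3 and the 2 hair deiminases Padi1 and Padi3, the 5 remaining ratios overlapped between the groups, with exact p from 0.4 to 1.

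Genes whose centred log2 values over the 6 arrays were most like each member were taken from the named genes past the filter, by Pearson correlation. For Padi1 they were B4galt6 (r = 0.99), Xbp1 and Mgst3, and B4galt6 averaged 42.2 in GC13 and 108 in FVB. For Padi3 they were Rac3, C1qb and Gga1, for Padi4 Map3k5, Cd44 and Tmbim1, and for Tgm3 Hspb8, Scarb1 and Srp68. Hspb8 followed the spread of Tgm3 over the GC13 arrays, with 386, 252 and 534 in GC13 against 635, 608 and 642 in FVB. For Padi2 they were Odf1, Ddx25 and Hbb-y, all dim, and for Tgm2 they were Tmem70, Agtrap and Fancc. The correlations of these genes ran from 0.96 to 0.99. They were the highest among all these named genes, over only 6 arrays that include the group difference. High values and a like array order therefore follow from the selection.

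Of 25 listed substrates of deimination 16 were tested, 1 was lower in GC13 at the threshold, none was higher and 15 did not pass, with a median log2 fold change of 0.03 against 0.08 for all probe sets. Without GC13 replicate 2 the median was -0.11, with 2 higher and 2 lower at the threshold, against 6.04% of all probe sets higher and 8.84% lower in that comparison. Krt72, an inner root sheath keratin, had 474, 361 and 424 in GC13, against 1089, 1103 and 1216 in FVB (log2 fold change -1.37, limma adjusted p = 0.0333). The probe set of Krt77, a marker of suprabasal epidermis, had close to the same values on every array, and shared signal was not tested. Tchh, the trichohyalin gene, had 53.0, 166 and 60.4 in GC13 against 138, 219 and 83.7 in FVB, so the groups overlapped (log2 fold change -0.66, SE 0.55), and its other probe set had -0.53. S100a3, the cuticle substrate of PADI3 in humans, was measured by a pair of probe sets with log2 fold changes of -0.26 for the brighter and -0.88 for the dimmer one, neither past the threshold. Filaggrin, encoded by Flg, had 1497 to 1910 on GC13 replicates 1 and 3 and 1132 on replicate 2, against 709 to 780 in FVB, and did not pass (log2 fold change 1.05, limma adjusted p = 0.0971). Tchh and S100a3 lay outside the rule for named genes and were named after their values were seen.

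Of 38 listed genes whose proteins are joined in the cornified envelope, 25 were tested, of which 1 was higher (Sprr2b), 1 lower (Sprr2f) and 23 not past the threshold, with a median log2 fold change of 0.45 and 18 of 25 above 0, against 57.3% of all probe sets. Krt2, also in this list, was counted by its brighter probe set, and its dimmer one was lower at the threshold (log2 fold change -1.95, limma adjusted p = 0.0254). Sprr1b was also counted by its brighter probe set (log2 fold change 0.33). Its dimmer one had -1.03, with every GC13 intensity below every FVB intensity, and did not pass (limma adjusted p = 0.168). Krt2 and Sprr1b lay outside the rule for named genes. Sprr2b and Sprr2f, small proline-rich proteins, are closely similar in sequence and their probe sets can share signal. The same may hold for the other Sprr2 genes of the list, so the 18 of 25 can count shared signal more than once. Without GC13 replicate 2 the median was 0.56, and 9 were higher and 2 lower at the threshold, against the same 6.04% and 8.84% of all probe sets. Of 14 listed matrix substrates of Tgm2 and of factor XIII, 11 were tested and none passed, with a median of 0.44 and 10 of 11 above 0, against 57.3%. There were 3 higher and 1 lower without GC13 replicate 2, again against 6.04% and 8.84%. Col5a1, a fibrillar collagen gene, had 858, 546 and 885 in GC13 against 356, 357 and 380 in FVB (log2 fold change 1.10, limma adjusted p = 0.0751), though a dimmer probe set of Col5a1 had 0.01.

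Of the transglutaminase superfamily outside the naming rule, Epb42, the erythrocyte band 4.2 gene, lay below the filter on dim probe sets, and F13a1 was not analysed here. Proteases and inhibitors of transglutaminase processing had 12 of 13 genes tested and none past the threshold. Their median was -0.23, with 8 of 12 below 0, against 42.7% of all probe sets. Lgmn, which encodes the protease legumain, had 79.5, 77.8 and 77.6 in GC13 against 142, 132 and 117 in FVB, and Cast, the calpain inhibitor gene, had 179, 169 and 175 against 325, 318 and 243. Both were lower in GC13 without overlap, and neither passed (limma adjusted p = 0.217 and 0.219). Capns1, the gene of the small calpain subunit, lay the other way, with 580, 337 and 534 in GC13 against 295, 307 and 341 in FVB, and overlapped on replicate 2 (log2 fold change 0.66, limma adjusted p = 0.221). The list had 1 gene higher and 2 lower at the threshold without GC13 replicate 2, against 6.04% and 8.84% of all probe sets.

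Transcription factors described upstream of Padi or Tgm genes, together with hair factors, had 24 of 29 genes tested and none past the threshold. Their median was -0.34, with 17 of 24 below 0, against 42.7% of all probe sets. In 11 of 24 every GC13 intensity lay below every FVB intensity, against 12.3% of all probe sets. Without GC13 replicate 2 their median was -0.59 and 7 were lower at the threshold, against 8.84% of all probe sets lower there. The 3 with the smallest p were Foxn1, Dlx3 and Foxq1, with log2 fold changes of -2.60 (SE 0.56), -0.85 and -0.97. Foxn1 had 19.0, 1.31 and 4.35 in GC13 against 41.3, 46.3 and 53.5 in FVB. The size of its change thus depends on readings near the pseudocount of 2. Factors of this list were known from earlier results of these data to lie lower, so their count is no independent evidence.

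Of 17 markers of hair cortex and cuticle 14 were tested and none passed, while 11 of 14 lay below 0, against 42.7% of all probe sets, with a median of -0.42. The median was -0.52 without GC13 replicate 2, where 6 of 14 were lower at the threshold, against 8.84% of all probe sets. Their summed intensity ran from 17008 to 18885 in GC13 and from 21292 to 22495 in FVB without overlap, and none was at 0. Inner root sheath markers had 7 of 10 tested, 1 lower at the threshold (Krt72), a median of -0.03 and sums from 8517 to 10266 in GC13 against 9403 to 9940 in FVB, which overlapped. Suprabasal epidermis markers had 11 of 13 tested, 1 lower at the threshold (Krt77), a median of 0.26 and sums from 7408 to 12178 in GC13 against 7612 to 7874 in FVB. Among the suprabasal markers 4 were higher and 1 lower without GC13 replicate 2, against 6.04% and 8.84% of all probe sets. The inner root sheath markers then had 1 lower, against the same 8.84%, and a median of -0.22. These marker lists were chosen with earlier results of these data known, so their counts and sums are no independent evidence. The part of these cell types in the differences of the enzymes was not tested.

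**Figure D4:**
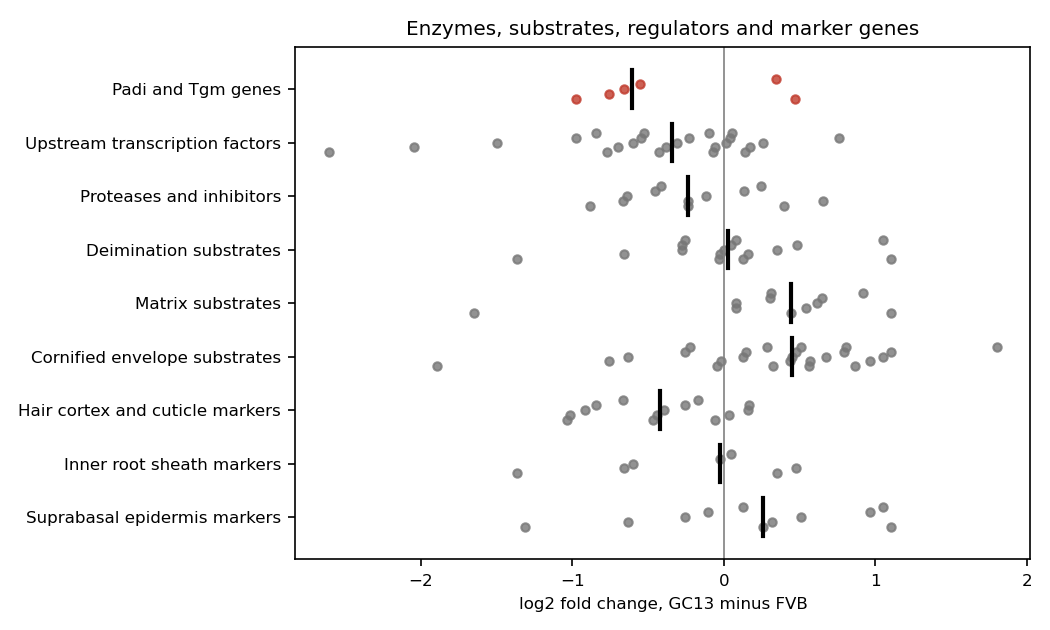
log2 fold change, GC13 minus FVB (horizontal axis), of the Padi and Tgm genes (red points), of genes in lists of substrates, proteases and upstream factors, and of marker genes (grey points), with the median of each list as a black bar. The enzymes have a median of -0.61, the upstream factors -0.34 and the cornified envelope substrates 0.45.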

How the data were processed

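The arrays were Affymetrix expression arrays, with 1 sample each, of whole-skin total RNA. The deposited intensities, for 12488 probe sets per array, are linear, and their software is not given in the sources used here. Judging by the values, the authors' intensities were scaled to a mean of 100 per array, leaving out the extreme 2% at each end. The 66 control probe sets gave only the Gapdh and beta-actin ratios. For the rest, log2(intensity + 2) was taken, 2 being the rounded 10th percentile of all intensities, and each array was centred on its median, since these medians differed by up to 0.345. The dimmest 25% by mean over all arrays were dropped, and 9316 remained. On this scale the change of dim probe sets is understated. The test was limma 3.58.1 (R 4.3.3), with lmFit and eBayes, two-sided, GC13 minus FVB, adjusted by Benjamini-Hochberg over the 9316, with a threshold of 0.05. Exact permutation tests used scipy 1.17.1. The fit was tested on simulated data with independent normal noise of equal spread in both groups. That setting lacks an outlying array such as GC13 replicate 2, so it cannot show how the fit behaves with one.

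Gene names came from the platform annotation, updated through Entrez identifiers with the RefSeq table of GRCm38.p6. Of 12422 probe sets 10833 had 1 symbol, 396 several and 1193 none, and 10817 identifiers were found in RefSeq. A listed gene stood by its brightest probe set. All members were named, and of each of the 6 pathway and 11 marker lists the 3 genes with the smallest p could be named. The members and lists were chosen with earlier results of these data known. Alternatives covered the pseudocount, the filter, the scaling, a variance trend, array weights, the replicate number as a block and each array left out. Other marker lists had no gene past the threshold: basal keratinocyte (median 0.28 over 4 genes), macrophage (0.07 over 9), mast cell (0.64 over 4), Schwann cell (0.11 over 4) and platelet (0.31, 1 gene). Without GC13 replicate 2, 2 macrophage markers were lower and 1 basal keratinocyte and 1 mast cell marker higher, against 8.84% of all probe sets lower and 6.04% higher.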

Additional observations from a re-analysis of the deposited data

How the results depend on the processing

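All 6 genes kept their direction under every alternative run. The log2 fold change ran from -1.05 to -0.80 for Padi1, -0.66 to -0.43 for Padi3, -1.05 to -0.44 for Padi4, -1.03 to -0.35 for Tgm3, 0.14 to 0.73 for Padi2 and 0.15 to 0.56 for Tgm2. The 50% filter removed Padi2, Tgm2 and Tgm3, which have no value there. Past the threshold was 1 of the 6 genes with a pseudocount of 32 (Padi1, limma adjusted p = 0.0256), where 119 of all probe sets passed. With array weights it was 4, but 3840 of all probe sets passed. With 1 array left out, between 0 and 2 of the 6 passed and between 0 and 1387 of all probe sets. The 1387 came without GC13 replicate 2, and 0 came without each FVB array, where the unadjusted limma p was under 0.05 for 765 to 949 probe sets. Without GC13 replicates 1 and 3, 6 and 13 passed. The limma adjusted p of Padi1 ran from 0.000837 to 0.437 over its 16 alternatives and was under 0.05 in 3. With the replicate number as a block (replicate block), 80 probe sets and none of the 6 genes passed. Same-numbered arrays had correlations of -0.07, 0.18 and 0.36 in their deviations from the group means, and 1 of 3 GC13 arrays correlated best with its own number. So few correlations cannot decide whether the numbers pair the samples. The 3 arrays per group limit the precision, and the signal over background of Padi2, Tgm2 and Tgm3, all dim, is unknown.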
